A study of Mus musculus with 128 samples.

Results

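The libraries described here are the 2 single-cell RNA libraries of mouse liver at E17.5 (E for embryonic day) that carry the label YapHMKO, out of 106 RNA libraries and 22 chromatin accessibility libraries in the series. They were chosen by their label alone, and they hold 30 and 33 cells. Their genotype is given as Foxa3-Cre;Yap-fl/fl, in which a Cre recombinase under Foxa3 control, active in early endoderm, is meant to delete loxP-flanked Yap alleles. The 2 control libraries, labelled YapWT, hold 49 and 58 E17.5 cells of the genotype Foxa3-Cre, with no floxed allele named, so that all 4 carry the Cre. Each is recorded as untreated hepatocytes of strain C57BL/6. Also used are 2 YapHMKO and 2 YapWT libraries of E15.5 liver with the same genotypes, 2 Pard3HMKO and 2 Pard3WT libraries at E17.5, of the genotypes Foxa3-Cre;Pard3-fl/fl and Foxa3-Cre, and 3 YapHMKO and 3 YapWT accessibility libraries at E17.5. Also compared are 4 Foxa3Cre libraries at E17.5, labelled for both the Pard3 and the Yap deletion or for both controls. The main fit further holds Pard3HMKO and Pard3WT libraries. Those with Foxa3Cre are of E11.5, E13.5, E15.5, E19.5, P0 and P14 (P for postnatal day), and those with AlfpCre are of E17.5. The series is about the polarity protein PAR3 in liver development and regeneration. No label says whether libraries came from separate embryos. The p-values rest on the spread between libraries within 22 groups, estimated over 44 libraries and not over the compared libraries alone. That spread may be technical.

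YAP, encoded by Yap1, is a transcriptional coactivator that binds DNA through TEAD factors and drives genes of growth, survival and the cytoskeleton. The Hippo kinases MST1/2 and LATS1/2, with their scaffolds SAV1, MOB1, NF2 and KIBRA, phosphorylate YAP and its paralog TAZ (Wwtr1) and keep them in the cytoplasm. In the liver, YAP is known for controlling organ size and for favouring biliary and progenitor states over hepatocyte differentiation.

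Yap1 reads did not fall with the label. Levels are given as CPM, a gene's reads relative to the library total, scaled by the trimmed mean of M-values (TMM) factor of each library. Yap1 stood at 44.9 and 44.4 CPM in the YapHMKO libraries, against 26.3 and 29.8 CPM in the YapWT libraries, so both YapHMKO libraries lay above both controls. The log2 change was 0.67 ± 0.45 (SE here and throughout; 2 libraries a group; edgeR quasi-likelihood test over 18572 genes, Benjamini-Hochberg adjusted p = 0.404), and at 0.66 to 1.34 it was called higher in 4 of the 15 alternative fits. That SE draws on all 22 groups, the E15.5 YapHMKO libraries among them. By the same test, it was 0.15 in the E17.5 Foxa3Cre libraries (adjusted p = 0.00389) and 0.16 in the 4 libraries alone (adjusted p = 0.0172). Why the SE differed was not tested. A Yap1 read was present in 30 of 30 and 33 of 33 YapHMKO cells, against 43 of 49 (87.8%; exact 95% binomial interval 75.2% to 95.4%) and 51 of 58 (87.9%; 76.7% to 95%) YapWT cells. With every cell thinned to 200000 reads, the shares were 100% in both YapHMKO libraries and 71.4% and 77.6% in the YapWT libraries. These intervals cover counting error only.

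At E15.5 the same label went with the loss of nearly all Yap1 reads. Yap1 stood at 0.161 and 3.69 CPM in the E15.5 YapHMKO libraries and at 55.4 and 74 CPM in the E15.5 YapWT libraries (log2 change -5.02 ± 0.55, adjusted p = 8.22e-06), and 3 of 21 and 11 of 28 YapHMKO cells held a read, against 36 of 40 and 26 of 26 YapWT cells. The E17.5 change exceeded the E15.5 change by 5.69 ± 0.70 on the log2 scale (adjusted p = 7.05e-06). Wwtr1, the gene of TAZ, was low at E17.5, with 3.06 and 3.38 CPM in the YapHMKO libraries, against 1.52 and 6.07 CPM in the YapWT libraries and overlapping groups (log2 change -0.24 ± 0.53, adjusted p = 0.874). Counts per gene cannot show whether a floxed exon is missing from the Yap1 reads. The results below are therefore given by label, as differences between libraries labelled YapHMKO and YapWT, and not as effects of Yap loss.

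**Figure D1:**
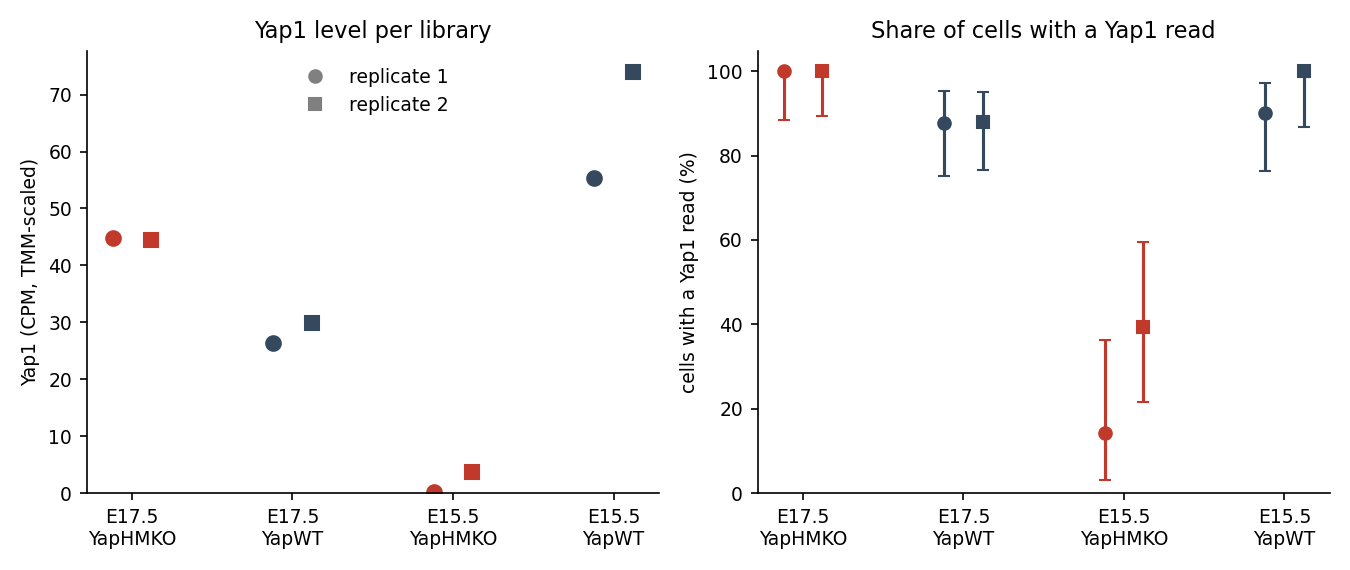
Left, Yap1 in each library (CPM, TMM-scaled); right, the share of cells with at least 1 Yap1 read, with exact 95% binomial intervals; red, YapHMKO; dark, YapWT. The E17.5 YapHMKO libraries sit at 44.9 and 44.4 CPM, above their controls, and the E15.5 YapHMKO libraries sit under 4 CPM.

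Several properties of the libraries moved with the label. The YapHMKO libraries summed to 20530977 and 27302938 reads, against 52693674 and 62144822 in the YapWT libraries, yet had medians of 8626 and 8887 detected genes per cell, against 7182 and 7183. The 10 most abundant genes took 30.5% and 28.3% of reads, against 39.1% and 39.6%, and the TMM factors were 0.972 and 1.02, against 0.626 and 0.626. Scaling by library totals alone therefore moved the median log2 change of all genes by 0.62, and that of Yap1 from 0.67 to 1.34. Changes are reported relative to the TMM scaling, under which the median log2 change was 0 in each comparison of groups. For the label at E17.5 it was also 0 with another size factor (RLE), and 0.025 in the fit of the 4 libraries alone. An exact 0 is thus no measure of the scaling. Y-linked reads were present in all 4 libraries, and cells with both Xist and Y-linked reads numbered 10 of 30 and 13 of 33, against 3 of 49 and 3 of 58. Xist, the X-inactivation RNA, stood at 6.66 and 10.9 CPM in the YapHMKO libraries, against 0.182 and 0.206 CPM in the YapWT libraries, and 0 cells of the 4 libraries held Xist reads without Y-linked reads. Cells holding markers of another liver cell type numbered 18 of 30 and 24 of 33, against 41 of 49 and 29 of 58. Each had reads for at least 50% of the markers of a type, whatever its depth, and was not shown to be of that type. Fits without them rest on far fewer cells, and calls lost there were not traced to other cell types. The part of these properties in the results was not tested.

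The hepatocyte label held in all 4 libraries: the 9 hepatocyte markers summed to 220892 and 204187 CPM with the YapHMKO label, against 429093 and 427156 CPM. Summed cholangiocyte markers reached 35.8 and 24.3 CPM, against 47.9 and 62.6 CPM, and 1 of the 10 was at 0 in all 4. The 16 myeloid markers summed to 333 and 357 CPM, against 255 and 255 CPM. The 10 megakaryocyte markers summed to 8.87 and 16.0 CPM, against 95.5 and 27.6 CPM, and the 10 lymphoid markers to 45.4 and 10.2 CPM, against 1.36 and 1.57 CPM. The 8 lists of other liver cell types held 8 to 16 tested genes each. A single one of these genes was called, beside 14.4% of all tested genes called in either direction. It was Reln, 1 of 14 tested stellate markers. Reln encodes the matrix protein reelin and stood at 89.2 and 103 CPM in the YapHMKO libraries, against 38.7 and 37.1 CPM in the YapWT libraries. Its level does not single out stellate cells, since cells were summed per library here. Whether fewer cells of a type or less RNA per cell lay behind such sums was not tested. Cells with reads for at least 50% of the megakaryocyte markers numbered 1 of 30 and 5 of 33 in the YapHMKO libraries, against 27 of 49 and 7 of 58 in the YapWT libraries.

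Cells of another E17.5 genotype, labelled for both deletions, closely resembled single cells of these libraries. Within it and its controls, the median gap in correlation between a cell's nearest and the fifth nearest cell was 0.0583 to 0.119, against 0.0103 to 0.0313 in the 32 libraries of other ages or Cre lines. Of the cells of the second doubly labelled library, 20 of 20 had both nearest single-line cells in the YapHMKO libraries. Of those of the first, 20 of 20 had their nearest single-line cell in the Pard3HMKO libraries. Of the cells of its controls, 40 of 41 and 56 of 57 had 1 YapWT and 1 Pard3WT cell as their nearest pair. With the doubly labelled libraries left out, the gap in the Yap and Pard3 libraries at E17.5 was 0.0117 to 0.0187. Cell column names and count vectors were shared between libraries in 0 cases. The doubly labelled libraries are therefore not treated as independent of those described here.

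At E17.5, the YapHMKO libraries showed lower expression of hepatocyte genes and higher expression of replication genes than YapWT. Of 18572 genes tested, 1241 (6.68%) were higher and 1431 (7.71%) lower at an adjusted p below 0.05. Leaving out the doubly labelled libraries gave 1204 and 1355. Without a TMM factor 4582 genes were higher and 236 lower, so that the higher share of calls was 95.1%, against 46.4% with it. Without cells that held markers of other types, 572 genes were higher and 495 lower.

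With the TMM factor, most genes in the lists of secreted liver proteins were lower with the YapHMKO label. Alb, which encodes albumin, stood at 92357 and 78836 CPM in the YapHMKO libraries, against 177963 and 179307 CPM in the YapWT libraries (log2 change -1.06 ± 0.12, adjusted p = 1.13e-06). Afp, the fetal counterpart of albumin, stood at 58978 and 62639 CPM in the YapHMKO libraries, against 114007 and 114087 CPM in the YapWT libraries (log2 change -0.91 ± 0.13, adjusted p = 1.99e-05), a call that was lost without the TMM factor. For both, the groups did not overlap and differed by about the same factor. Among complement and coagulation genes, 18 of 22 fell and 0 rose (median log2 change -0.96; 9 and 3 without the TMM factor). Fgb, a fibrinogen chain, had 14564 and 10053 CPM in the YapHMKO libraries, against 35234 and 37432 CPM in the YapWT libraries (log2 change -1.56 ± 0.16, adjusted p = 3.07e-07). F2, which encodes prothrombin, had 1389.8 and 1251 CPM in the YapHMKO libraries, against 2360.4 and 2598 CPM in the YapWT libraries (log2 change -0.91 ± 0.09, adjusted p = 2.21e-08). Of the acute phase genes, 11 of 20 fell and 0 rose (median log2 change -1.27; 6 and 0 without the TMM factor). Of the apolipoproteins, 9 of 14 fell and 1 rose (median log2 change -0.87; 5 and 5 without the TMM factor); the exception was Apob. Without the cells with other-type markers, 5 apolipoproteins fell. Apoe, a lipoprotein ligand for receptor uptake, had 8317 and 7169 CPM in the YapHMKO libraries, against 15647 and 16002 CPM in the YapWT libraries (log2 change -1.03 ± 0.11, adjusted p = 4.53e-07). In each of these genes both YapHMKO libraries were below both YapWT libraries.

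With the TMM factor, the lists of hepatocyte maturation, urea cycle and periportal genes held more genes that fell than rose, with between 9 of 19 and 16 of 20 members called lower. Not every metabolic list did so to that extent. Of the lipogenesis genes, 2 of 14 fell and 0 rose, with a median log2 change of -0.09 (1 and 7 without the TMM factor). Of the genes of hepatocyte maturation, 16 of 20 fell and 0 rose (median log2 change -1.27; 9 and 1 without the TMM factor). Fah, the last enzyme of tyrosine breakdown, had 526 and 421 CPM in the YapHMKO libraries, against 1218 and 1211 CPM in the YapWT libraries (log2 change -1.36 ± 0.14, adjusted p = 1.32e-08). Ass1, an enzyme of the urea cycle, had 913 and 905 CPM in the YapHMKO libraries, against 2429 and 2438 CPM in the YapWT libraries (log2 change -1.42 ± 0.15, adjusted p = 1.06e-07). In the wider urea cycle and amino acid list, 9 of 19 fell and 1 rose (median log2 change -0.94; 3 and 4 without the TMM factor). Among the periportal genes, which mark the zone where portal blood enters the lobule, 9 of 16 fell and 0 rose (median log2 change -1.07; 4 and 2 without the TMM factor). Arg1, the enzyme that releases urea, had 327 and 249.6 CPM in the YapHMKO libraries, against 952 and 904 CPM in the YapWT libraries (log2 change -1.69 ± 0.21, adjusted p = 1.25e-06). Without the cells with other-type markers, 9 maturation genes and 5 periportal genes fell.

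For gluconeogenesis and glycogen, 11 of 14 fell and 0 rose (median log2 change -1.36; 7 and 0 without the TMM factor). Slc37a4, the transporter that brings glucose 6-phosphate into the endoplasmic reticulum for the last step of glucose release, had 168 and 142 CPM in the YapHMKO libraries, against 427 and 390.3 CPM in the YapWT libraries (log2 change -1.40 ± 0.18, adjusted p = 7.95e-07). Ugp2, which makes UDP-glucose for glycogen, had 274 and 219.5 CPM in the YapHMKO libraries, against 709 and 660.2 CPM in the YapWT libraries (log2 change -1.47 ± 0.14, adjusted p = 6.14e-09). For glycolysis and hypoxia, 15 of 25 fell and 0 rose (median log2 change -0.83; 8 and 2 without the TMM factor). Ldha, lactate dehydrogenase A, had 2003 and 1924 CPM in the YapHMKO libraries, against 4795 and 4569.8 CPM in the YapWT libraries (log2 change -1.25 ± 0.09, adjusted p = 6.69e-11). Fatty acid oxidation had a list median that changed sign with the scaling, -0.60 with the TMM factor and 0.07 without: 11 of 18 fell and 0 rose (median log2 change -0.60; 5 and 5 without the TMM factor). Acaa2, the mitochondrial thiolase, had 1054 and 920.0 CPM in the YapHMKO libraries, against 2109 and 2142 CPM in the YapWT libraries (log2 change -1.11 ± 0.08, adjusted p = 3.32e-11), the smallest adjusted p of that list. Of the gluconeogenesis genes 7 fell without YapHMKO replicate 2, and without the cells with other-type markers 6 of them and 6 fatty acid oxidation genes fell.

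With the TMM factor, called genes of xenobiotic and bile acid metabolism were lower apart from Cyp7b1, which is on both lists. Of the cytochrome P450 genes, 10 of 26 fell and 1 rose (median log2 change -1.13; 7 and 2 without the TMM factor). Of the bile acid genes, 9 of 19 fell and 1 rose (median log2 change -0.68; 4 and 3 without the TMM factor). With no filter on low counts 20 cytochrome P450 genes fell, and 5 bile acid genes fell without YapHMKO replicate 2 or without the cells with other-type markers. Cyp8b1, the enzyme that directs synthesis to cholic acid, had 42.5 and 34.3 CPM in the YapHMKO libraries, against 90.6 and 109.6 CPM in the YapWT libraries (log2 change -1.38 ± 0.27, adjusted p = 0.000381). Igfbp1, a secreted binding protein for insulin-like growth factors, had 1875 and 1461 CPM in the YapHMKO libraries, against 7624 and 7547 CPM in the YapWT libraries (log2 change -2.19 ± 0.33, adjusted p = 4.19e-05). The hepatocyte transcription factors were split, and their median also changed sign, -0.52 with the TMM factor and 0.15 without: 8 of 19 fell and 2 rose (median log2 change -0.52; 0 and 6 without the TMM factor). Of these factors 3 fell without YapHMKO replicate 2, 5 without any 1 of the other 3 libraries, 5 after thinning and 2 without the cells with other-type markers. Cebpa, a factor of hepatocyte differentiation, had 82.8 and 79.5 CPM in the YapHMKO libraries, against 143 and 129 CPM in the YapWT libraries (log2 change -0.75 ± 0.12, adjusted p = 4.34e-05), not called without the TMM factor or without the cells with other-type markers. Foxa1, a pioneer factor of early liver specification, had 8.12 and 6.8 CPM in the YapHMKO libraries, against 0.637 and 1 CPM in the YapWT libraries (log2 change 3.17 ± 0.51, adjusted p = 2.72e-05), higher in both YapHMKO libraries by several fold from a low level.

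**Figure D2:**
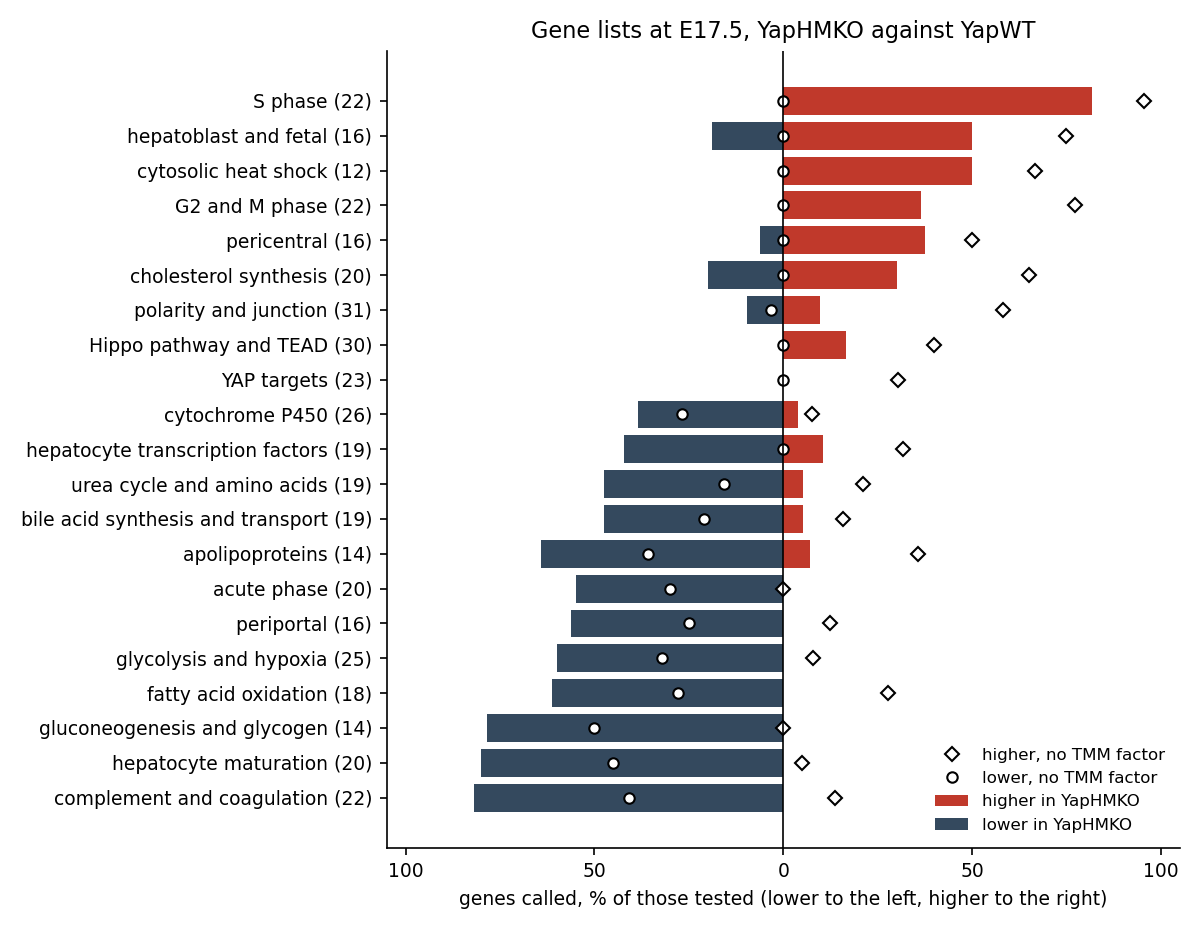
Genes called in each list at E17.5, as a percentage of those tested (number in brackets), with those higher in YapHMKO to the right and those lower to the left; bars use the TMM factor, open symbols library totals alone. Complement and maturation genes lie to the left and S phase genes to the right under both scalings, while the counts of fatty acid oxidation, transcription factor and cholesterol genes depend on the scaling.

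Replication genes were higher. Of 22 S phase genes, 18 rose and 0 fell (median log2 change 1.66; 21 and 0 without the TMM factor). When 1 library was left out 9 to 12 rose, and without the cells with other-type markers 8 rose. Cdc6, a loader of the replicative helicase, had 11.3 and 5.47 CPM in the YapHMKO libraries, against 0.243 and 0.386 CPM in the YapWT libraries (log2 change 4.71 ± 0.80, adjusted p = 6.04e-05). Mcm4, a subunit of that helicase, had 36.1 and 31.6 CPM in the YapHMKO libraries, against 10.7 and 6.43 CPM in the YapWT libraries (log2 change 1.98 ± 0.37, adjusted p = 0.000222). Clspn, the checkpoint mediator claspin, had 12 and 9.61 CPM in the YapHMKO libraries, against 0.182 and 0.54 CPM in the YapWT libraries (log2 change 4.87 ± 0.79, adjusted p = 2.65e-05). For all of them the groups did not overlap. Of 22 G2 and M phase genes, 8 rose and 0 fell (median 1.80; 17 and 0 without the TMM factor), but 1 to 4 rose when any 1 library was left out and 1 rose without the cells with other-type markers, whereas 15 rose in the E17.5 libraries, 19 in the 4 libraries alone and 20 with no filter. Mki67, the proliferation antigen Ki-67, had 70.6 and 76.7 CPM in the YapHMKO libraries, against 13.8 and 14.7 CPM in the YapWT libraries (log2 change 2.37 ± 0.61, adjusted p = 0.009). Top2a, the topoisomerase of mitotic chromosomes, had 133 and 138 CPM in the YapHMKO libraries, against 14.52 and 19.6 CPM in the YapWT libraries (log2 change 2.98 ± 0.81, adjusted p = 0.0137). The calls of Mki67 and Top2a were lost without YapWT replicate 1, without YapWT replicate 2 and without the cells with other-type markers, and that of Top2a also without YapHMKO replicate 2 and without the cells with both Xist and Y-linked reads. Ccnd1, which encodes cyclin D1 of the G1 phase, had 46.5 and 45.3 CPM in the YapHMKO libraries, against 4.18 and 5.42 CPM in the YapWT libraries (log2 change 3.25 ± 0.23, adjusted p = 2.92e-11).

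In the Hippo pathway 5 genes were higher, and 0 YAP targets were called, beside 6.68% of all tested genes called higher with the TMM factor and 24.7% without it. Among the Hippo and TEAD genes, 5 of 30 rose and 0 fell (median log2 change 0.47; 12 and 0 without the TMM factor), but 3 rose without YapWT replicate 2 and 2 without the cells with other-type markers. Of 23 tested YAP targets, 0 rose and 0 fell in the main test (median 0.38; 7 and 0 without the TMM factor). The other fits called at most 2 higher and at most 3 lower, with 2 and 2 by DESeq2. Among the upstream scaffolds, Wwc1, which encodes KIBRA, had 10.7 and 13.2 CPM in the YapHMKO libraries, against 3.37 and 6.07 CPM in the YapWT libraries (log2 change 1.34 ± 0.26, adjusted p = 0.000309). Frmd6, a FERM-domain activator of the kinases, had 6.46 and 6.84 CPM in the YapHMKO libraries, against 1.91 and 1.65 CPM in the YapWT libraries (log2 change 1.90 ± 0.37, adjusted p = 0.000355). Mob1a, a cofactor of LATS kinases, had 17.2 and 16 CPM in the YapHMKO libraries, against 9.13 and 6.07 CPM in the YapWT libraries (log2 change 1.13 ± 0.24, adjusted p = 0.000876). All 3 were higher in both YapHMKO libraries.

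Limd1, an inhibitor of LATS, had 24.5 and 24.3 CPM in the YapHMKO libraries, against 8.25 and 13.9 CPM in the YapWT libraries (log2 change 1.14 ± 0.24, adjusted p = 0.000756). Amot, an angiomotin that binds YAP, had 25.2 and 23 CPM in the YapHMKO libraries, against 13.7 and 10.7 CPM in the YapWT libraries (log2 change 0.98 ± 0.25, adjusted p = 0.00496). The calls of Mob1a and Amot were lost without YapWT replicate 2 and that of Limd1 without YapWT replicate 1, and those of Frmd6, Limd1 and Amot without the cells with other-type markers. The kinase Lats1 stood at 10.3 and 17.2 CPM in the YapHMKO libraries, against 16.1 and 17.2 CPM in the YapWT libraries, with overlapping ranges (log2 change -0.27 ± 0.27, adjusted p = 0.6). Tead1, a DNA-binding partner of YAP, stood at 3.36 and 3.06 CPM in the YapHMKO libraries, against 7.55 and 8.35 CPM in the YapWT libraries (log2 change -1.31 ± 0.47, adjusted p = 0.0562). Among the targets, Cyr61 (also called Ccn1) stood at 37.7 and 25.1 CPM in the YapHMKO libraries, against 33.6 and 43.1 CPM in the YapWT libraries, with overlapping groups (log2 change -0.29 ± 0.50, adjusted p = 0.812). Ctgf (also called Ccn2) had at most 0.108 CPM in any of the 4 libraries, and Ankrd1 had 0 reads in all 4. Birc5, the mitotic survivin gene on the same list, had 122 and 163 CPM in the YapHMKO libraries, against 59.7 and 45.2 CPM in the YapWT libraries (log2 change 1.44 ± 0.70, adjusted p = 0.203). F3, tissue factor, had 0.401 and 0.072 CPM in the YapHMKO libraries, against 3.06 and 2.96 CPM in the YapWT libraries (log2 change -3.69 ± 1.46, adjusted p = 0.0939).

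Other rises included genes of fetal liver and of the pericentral zone. Of the hepatoblast and fetal genes, 8 of 16 rose and 3 fell (median log2 change 0.79; 12 and 0 without the TMM factor). Of these, 5 rose without YapHMKO replicate 1, 4 without YapWT replicate 1, 4 without YapWT replicate 2 and 4 without the cells with other-type markers. Dlk1, a surface marker of hepatoblasts, had 1423 and 1611 CPM in the YapHMKO libraries, against 911 and 923 CPM in the YapWT libraries (log2 change 0.73 ± 0.09, adjusted p = 4.41e-07). Igf2, the fetal growth factor, had 1115 and 1194 CPM in the YapHMKO libraries, against 1777 and 1738 CPM in the YapWT libraries (log2 change -0.61 ± 0.07, adjusted p = 1.8e-07) but 0.064, in the other direction, without the TMM factor, and it was not called without the cells with other-type markers. With the TMM factor the fetal list is thus not of 1 direction. Of the pericentral genes, which depend on Wnt signals near the central vein, 6 of 16 rose and 1 fell (median log2 change 1.12; 8 and 0 without the TMM factor), but 2 rose without YapWT replicate 2, 3 without YapHMKO replicate 1 and 3 without the cells with other-type markers. Rhbg, an ammonium transporter, had 31.5 and 40.1 CPM in the YapHMKO libraries, against 6.52 and 5.76 CPM in the YapWT libraries (log2 change 2.55 ± 0.38, adjusted p = 1.66e-05). Gulo, the last enzyme of vitamin C synthesis, had 122 and 148 CPM in the YapHMKO libraries, against 49.6 and 50.4 CPM in the YapWT libraries (log2 change 1.43 ± 0.23, adjusted p = 2.94e-05). Lgr5 and Axin2, a receptor and a feedback gene of Wnt signalling, were called at 9.02 CPM or less in every library, and neither call remained without YapWT replicate 2, nor that of Lgr5 without YapHMKO replicate 1, without the cells with other-type markers or in cells thinned to equal reads.

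Of 16 antigen presentation genes, 3 rose, 1 fell and 12 were not called (7 and 0 without the TMM factor). H2-K1, a class I antigen-presenting chain, had 88.4 and 98 CPM in the YapHMKO libraries, against 16.1 and 14.9 CPM in the YapWT libraries (log2 change 2.59 ± 0.19, adjusted p = 3.14e-11). B2m, the light chain it pairs with, had 1354 and 1404 CPM in the YapHMKO libraries, against 1872 and 1785 CPM in the YapWT libraries (log2 change -0.41 ± 0.06, adjusted p = 3.12e-06), and 0.26 without the TMM factor. The chain and its partner thus differed in direction with the TMM factor, whereas both log2 changes were positive without it. Of 12 cytosolic heat shock genes, 6 rose and 0 fell (8 and 0 without the TMM factor). Hsp90aa1, the inducible HSP90 chaperone, had 245 and 256 CPM in the YapHMKO libraries, against 88.3 and 70.7 CPM in the YapWT libraries (log2 change 1.65 ± 0.16, adjusted p = 5.07e-09). Hspa8, the constitutive HSP70, had 807 and 843 CPM in the YapHMKO libraries, against 540.3 and 492 CPM in the YapWT libraries (log2 change 0.68 ± 0.10, adjusted p = 5.43e-06). Among polarity and junction genes, 3 of 31 rose and 3 fell (median log2 change 0.15; 18 and 1 without the TMM factor), near the 6.68% and 7.71% of all genes. Without YapWT replicate 2, 1 of them rose, and without the cells with other-type markers 1 rose and 0 fell. Ctnnb1, beta-catenin, had 151 and 179.9 CPM in the YapHMKO libraries, against 69.4 and 63.1 CPM in the YapWT libraries (log2 change 1.32 ± 0.12, adjusted p = 1e-09). Crb3, an apical polarity protein, had 17.7 and 16.4 CPM in the YapHMKO libraries, against 41 and 38 CPM in the YapWT libraries (log2 change -1.21 ± 0.19, adjusted p = 1.53e-05). Actb, beta-actin, had 5479 and 5996 CPM in the YapHMKO libraries, against 2669 and 2606 CPM in the YapWT libraries (log2 change 1.12 ± 0.13, adjusted p = 1.68e-06). The calls of B2m and Crb3 were lost without the cells with other-type markers.

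**Figure D3:**
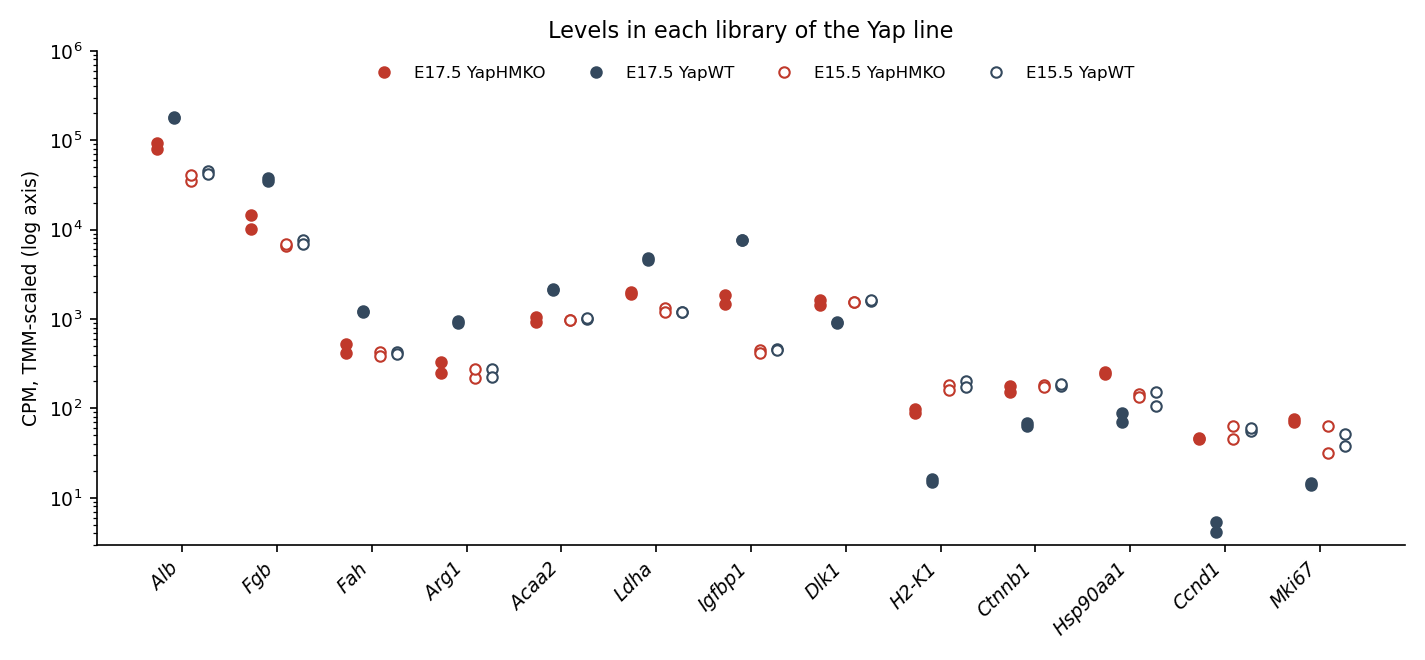
Levels of 13 genes in each library of the Yap line (CPM, TMM-scaled, log axis); filled, E17.5; open, E15.5; red, YapHMKO; dark, YapWT. At E17.5 the YapHMKO libraries lie below YapWT for the 7 genes at the left and above it for the 6 genes at the right; at E15.5 the labels lie close together.

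By size of change, 10 falls and 10 rises stood out among called genes with a mean of at least 10 CPM in 1 group and no overlap. Among the falls, Fgl1, a hepatocyte-secreted fibrinogen-like protein, had 171 and 104 CPM in the YapHMKO libraries, against 1129 and 1101 CPM in the YapWT libraries (log2 change -3.02 ± 0.42, adjusted p = 1.76e-05). Efna1, an ephrin ligand, had 38.7 and 30.3 CPM in the YapHMKO libraries, against 249.8 and 236 CPM in the YapWT libraries (log2 change -2.82 ± 0.35, adjusted p = 1.87e-06). Txnip, a glucose-induced inhibitor of thioredoxin, had 54.1 and 40.3 CPM in the YapHMKO libraries, against 262 and 285 CPM in the YapWT libraries (log2 change -2.54 ± 0.28, adjusted p = 1.67e-07). Akr1e1, an aldo-keto reductase, had 10.8 and 14.1 CPM in the YapHMKO libraries, against 86.5 and 70.0 CPM in the YapWT libraries (log2 change -2.65 ± 0.29, adjusted p = 4.03e-08). Ces1c, a carboxylesterase, had 15.48 and 9.54 CPM in the YapHMKO libraries, against 70.0 and 67.1 CPM in the YapWT libraries (log2 change -2.46 ± 0.49, adjusted p = 0.00102).

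Other falls were those of Lims2, an adaptor of integrin signalling (-3.10 ± 0.67), Lrg1, a secreted leucine-rich glycoprotein (-2.73 ± 0.40), Smox, spermine oxidase (-2.43 ± 0.83), and the serine protease inhibitor Serpina3k. Serpina3k stood at 0 and 0.9 CPM in the YapHMKO libraries, against 5.03 and 91.9 CPM in the YapWT libraries. A single cell held 97.3% of its reads in YapWT replicate 2, and its call was lost without that library, in the fit of the E17.5 Foxa3Cre libraries and in that of the 4 libraries alone. The call of Smox was lost without any 1 of the 4 libraries, without the doubly labelled libraries and without the cells with both Xist and Y-linked reads. Smox was also not called without a TMM factor, and the calls of Lims2, Efna1, Lrg1, Ces1c and Smox were lost without the cells with other-type markers.

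Among the rises, Fscn1, the actin-bundling protein fascin, had 39.8 and 32 CPM in the YapHMKO libraries, against 3.03 and 2.44 CPM in the YapWT libraries (log2 change 3.71 ± 0.42, adjusted p = 2.9e-07). Ccne1, cyclin E1, had 53.8 and 34.3 CPM in the YapHMKO libraries, against 3.34 and 3.91 CPM in the YapWT libraries (log2 change 3.60 ± 0.62, adjusted p = 0.00018). Mdk, the growth factor midkine, had 41.4 and 13.8 CPM in the YapHMKO libraries, against 1.36 and 1.05 CPM in the YapWT libraries (log2 change 4.51 ± 0.73, adjusted p = 0.000102). Arhgap36, an activator of Hedgehog signalling, had 13.8 and 10.8 CPM in the YapHMKO libraries, against 0.152 and 1.65 CPM in the YapWT libraries (log2 change 3.75 ± 0.95, adjusted p = 0.00638). Neil3, a DNA glycosylase, had 17 and 14 CPM in the YapHMKO libraries, against 1.39 and 1.05 CPM in the YapWT libraries (log2 change 3.66 ± 1.19, adjusted p = 0.0389), a call lost without any 1 of the 4 libraries and without the cells with both Xist and Y-linked reads. The calls of Neil3 and Arhgap36 were lost without the cells with other-type markers, and that of Arhgap36 without YapWT replicate 1.

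Pcna-ps2 (4.84 ± 0.71) is a pseudogene of the sliding clamp gene, so its reads may belong to the parent gene. In Ifitm1, an interferon-induced membrane protein, with 16.7 and 24.7 CPM in the YapHMKO libraries, against 1.12 and 0.874 CPM in the YapWT libraries, a single cell held 91.9% and 97.2% of the YapHMKO reads. In Vpreb3, a B-lineage gene, with 17.6 and 7.38 CPM in the YapHMKO libraries, against 0.546 and 0.231 CPM in the YapWT libraries, a single cell held 56.7% and 91.7%. The calls of Ifitm1 and Vpreb3 were each lost without 3 of the 4 libraries in turn, without the cells with other-type markers and without those with both Xist and Y-linked reads.

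The E15.5 libraries of the same line allow the label to be compared across days, but sex transcripts differed between the days. At E15.5, cells with Xist and without Y-linked reads numbered 18 of 21 and 24 of 28 (YapHMKO) and 30 of 40 and 22 of 26 (YapWT). Cells with Y-linked reads and without Xist numbered 0 in each of these libraries. At E17.5 they numbered 20 of 30 and 20 of 33 (YapHMKO) and 45 of 49 and 55 of 58 (YapWT). Day and sex transcripts cannot be told apart here. At E15.5, 27 genes were higher and 29 lower with the YapHMKO label, 0.302% of those tested in either direction. At E17.5 the either-direction share was 14.4%. The change itself differed between the days for 1549 genes (8.34%), 666 (3.59%) with a more positive and 883 (4.75%) with a more negative change at E17.5. This number was 280 without cells holding other-type markers, 908 when 8 libraries alone were fitted, and 876 without YapHMKO replicate 2 and 1006 without YapWT replicate 1. Of the genes higher at E17.5, 5 were also higher at E15.5 (0.403% of the E17.5 list, 18.5% of the E15.5 list), and 8 were lower on both days (0.559% and 27.6%). Over 6900 genes with at least 10 CPM, the median absolute log2 change was 0.474 at E17.5 and 0.191 at E15.5.

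For 5 genes picked after their values were seen, the E17.5 YapHMKO levels stood nearer to those of the E15.5 libraries than to those of the E17.5 YapWT libraries. The libraries as a whole did not coincide. On the first principal component over variable genes (37.0% of variance), the E17.5 YapHMKO libraries lay at 5.47 and -1.05. This was between the 4 E15.5 libraries (-66.1 to -58.7) and E17.5 YapWT (45.4 and 44.8). On the second (20.5%), the E17.5 YapHMKO libraries lay at -39.3 and -39.2, against 18.8 and 19.9 for E17.5 YapWT and 23.2 to 25.5 for the 4 E15.5 libraries. The components also used the Pard3 and the doubly labelled libraries at E17.5. Fah had 526 and 421 CPM in the E17.5 YapHMKO libraries, 1218 and 1211 CPM in the E17.5 YapWT libraries, 427 and 390.0 CPM in the E15.5 YapHMKO libraries and 429.5 and 402 CPM in the E15.5 YapWT libraries. Acaa2 had 984 and 977 CPM at E15.5 with the YapHMKO label and 1006 and 1014 CPM with the YapWT label, beside the 1054 and 920.0 CPM at E17.5 with the YapHMKO label. Ccnd1 had 45.1 and 63.6 CPM at E15.5 with the YapHMKO label and 55.9 and 60.5 CPM with the YapWT label, both near its E17.5 YapHMKO level and above its E17.5 YapWT level. Dlk1 and Ctnnb1 followed this order as well, with 1597 and 1629 CPM and 178 and 187 CPM in the E15.5 YapWT libraries.

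Other genes did not follow it. Alb had 34839.8 and 40568 CPM at E15.5 with the YapHMKO label and 44831 and 41422 CPM with the YapWT label, below its level in both E17.5 groups. Igf2 had 5215 and 4371 CPM at E15.5 with the YapHMKO label and 4617 and 4226 CPM with the YapWT label, above both E17.5 groups. Hsp90aa1 was higher in the E17.5 YapHMKO libraries than in any E15.5 library, where it reached 151 CPM. Akr1e1, lower with the label at E17.5, was higher with it at E15.5, with 73 and 61.9 CPM in the YapHMKO libraries against 15.2 and 24.4 CPM in the YapWT libraries (1.77 ± 0.28, adjusted p = 0.000506). TMM factors of the E15.5 libraries were 1.22 to 1.27. With the TMM factor, B2m was lower with the label on both days, with log2 changes of -0.41 ± 0.06 at E17.5 and -0.41 ± 0.06 at E15.5 (adjusted p = 6.49e-05). At E15.5, 0 of the 22 complement and coagulation genes, 0 of the 22 S phase genes and 0 of the 23 YAP targets were called in either direction, with 0.302% of all tested genes called. Their median log2 changes at E15.5 were -0.07, 0.46 and -0.44, against 0 for all genes. For the 22 G2 and M phase genes, of which 0 were called, the median at E15.5 was 0.93.

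At the same age, the libraries of the Pard3 line overlapped with the YapHMKO label in the genes called, without sharing a library. In Pard3HMKO against Pard3WT, 1316 genes were higher (7.09%) and 1460 lower (7.86%). Of the genes higher with the YapHMKO label, 709 were higher in Pard3HMKO as well (57.1% of the Yap list, 53.9% of the Pard3 list), and 1078 were lower in both (75.3% and 73.8%). Across 6900 genes, the changes had a Pearson r of 0.843 and a Spearman rho of 0.842, against 0.188 and 0.105 for the Yap line at E15.5. These coefficients run over genes, which are not independent replicates, and the pairs of E17.5 groups share age, tissue, Cre and protocol. Yap1 itself stood at 34 and 31.7 CPM in Pard3HMKO and 27.5 and 25.8 CPM in Pard3WT. In the Pard3 line too the TMM factors moved with the label, 0.983 and 1.10 in Pard3HMKO against 0.659 and 0.614 in Pard3WT, as did the median genes per cell, 7744 and 7567 against 6102 and 6456.5. Label and library properties cannot be told apart in either line. Of the 23 YAP targets, 4 rose and 1 fell in Pard3HMKO, and of the 22 S phase genes 13 rose and 0 fell.

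**Figure D4:**
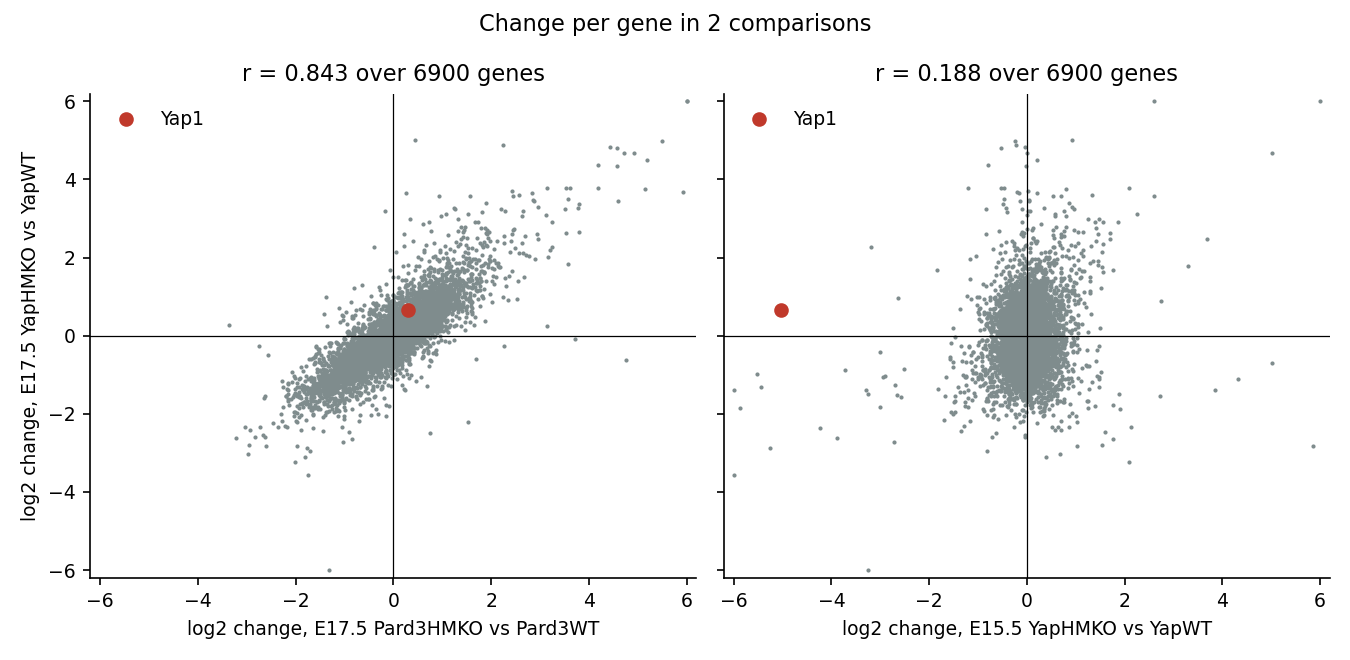
Each point is 1 of 6900 genes; the vertical axis is the log2 change with the YapHMKO label at E17.5, the horizontal axis that of Pard3HMKO at E17.5 (left) or of the YapHMKO label at E15.5 (right); values beyond 6 are drawn at the edge. The points follow a diagonal at the left (r = 0.843) and not at the right (r = 0.188), where Yap1 lies at -5.02.

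The difference between the Yap and the Pard3 change was called for 5 genes (0.0269%), 2 with a more positive (0.0108%) and 3 with a more negative change (0.0162%), chosen here after their values were seen. The count was 145 with no filter on low counts and 28 with DESeq2, and 1011 genes had an unadjusted p below 0.05. Rps2, a ribosomal protein gene, had 1349 and 1517 CPM in the YapHMKO libraries, against 2213 and 2099 CPM in the YapWT libraries, and 1182 and 1162 CPM in Pard3HMKO against 336 and 388 CPM in Pard3WT (difference of changes -2.28 ± 0.34, adjusted p = 0.00355). Snhg6, a host gene of small nucleolar RNAs, had 44.1 and 36.9 CPM in the YapHMKO libraries, against 32.7 and 31.1 CPM in the YapWT libraries, and 30.4 and 39.5 CPM in Pard3HMKO against 72 and 77.8 CPM in Pard3WT (1.45 ± 0.22, adjusted p = 0.000964). Both changed in the Pard3 line and were not called in the Yap line.

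The other 3 are pseudogenes, whose reads may belong to parent genes. The differences of changes were -2.54 ± 0.42, adjusted p = 0.00355 for Gm6969, -3.81 ± 0.33, adjusted p = 7.25e-09 for Gm6472 and 2.66 ± 0.39, adjusted p = 0.000914 for Gm4735. Gm4735 had 44.9 and 40.6 CPM in the YapHMKO libraries, against 9.79 and 8.02 CPM in the YapWT libraries at E17.5, and 1.96 and 1.61 CPM with the YapHMKO label against 14.7 and 17.9 CPM with the YapWT label at E15.5. It was thus higher with the label at E17.5 and lower with it at E15.5. Against the doubly labelled line, 0 genes differed in change by edgeR (211 at an unadjusted p below 0.05; DESeq2 called 1), but the cells of those libraries are not treated as independent, as given above.

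Chromatin accessibility was measured by ATAC-seq, in which a transposase cuts open DNA. The deposited peak lists held 36594, 37219 and 35144 peaks in the YapHMKO libraries, against 42882, 38042 and 35311 in the YapWT libraries. The groups overlapped (difference in means -2426 peaks, 2-sided exact permutation p = 0.4; 3 against 3 cannot go below 0.1). Merged over the 6 lists, peaks formed 63701 regions on mm10 (GRCm38), of which 17884 were held by all 6 libraries. A further 2347 were held by all 3 YapHMKO libraries and no YapWT library (gained), and 2172 by all 3 YapWT libraries and no YapHMKO library (lost). Peak lists give presence only, so these are counts without a test. With peaks of a score of at least 100, the score being the authors' peak caller value, gained regions numbered 927 and lost regions 1733, and the groups no longer overlapped in peak number (p = 0.1, the smallest possible).

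At the Yap1 gene itself, on the minus strand of chr9:7931999-8004638, open regions were called with both labels. The region at chr9:8003083-8003992, inside the gene, was held by all 6 libraries. The region over the start site, chr9:8004346-8004998, was held by 2 YapHMKO libraries and 1 YapWT library. The lists do not resolve exons.

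Among the gene lists, that of bile duct and keratin genes had the most members near gained regions for its size, apart from the 10 cholangiocyte markers it overlaps. Of 18 such genes, 9 had a gained region within 10 kb and 1 a lost region, whereas 7.30% of 21900 protein-coding genes had a gained and 7.79% a lost region nearby. Among the 9 were Cldn4, Cldn7, Krt18, Krt19, Krt23, Notch2, Sox9 and Spp1. The region in Krt19, a keratin of bile duct cells, lay at chr11:100145737-100146442 with scores of 194, 172 and 220.2. Cldn7, a claudin of duct epithelium, had a gained region over its start site at chr11:69965029-69965769, with scores of 128, 151 and 173. Of these 9 genes, all tested, 0 rose and 1 fell in the RNA libraries, where 6.68% of all genes rose and 7.71% fell, so that the 0 is near that share. Krt18, another keratin, had 304 and 271 CPM in the YapHMKO libraries, against 413 and 448 CPM in the YapWT libraries (log2 change -0.58 ± 0.11, adjusted p = 0.000338), but a log2 change of 0.083 without the TMM factor.

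Of 26 YAP targets, 5 lay near a gained and 6 near a lost region, and of 30 Hippo and TEAD genes 6 and 6. Members such as Tead1 had both. These counts were not set against gene length. Among listed genes with a gained region over a start site, the mean score was highest for Ankrd1, a classical YAP target, at chr19:36119660-36120410, with scores of 213, 194 and 181, whereas its RNA was at 0 reads. Ptpn14, a YAP-binding phosphatase, had one over its start at chr1:189727224-189728458.

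In several lists of hepatocyte function, and in that of polarity and junction genes, fewer members lay near gained than near lost regions. Of 19 hepatocyte transcription factors, 4 lay near a gained and 9 near a lost region, among the 9 Hnf4a, Hhex and Nr1i3. Nfia, Nfib and Nr1h4 lay near both. Of 18 fatty acid oxidation genes, 3 lay near a gained and 7 near a lost region. Of 36 polarity and junction genes, 4 lay near a gained and 14 near a lost region. Complement and coagulation genes counted 0 and 4 of 23, and cytochrome P450 genes 0 and 4 of 27. Nearness was counted from the whole gene span. These counts, and those of the bile duct and keratin genes, were not set against gene length either.

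By score, the leading gained regions near called or listed genes included those in Vgll4 and Zbtb20. The region in Vgll4, a TEAD-binding antagonist of YAP, lay at chr6:114888778-114889451 with scores of 215, 238 and 273; its RNA had 6.97 and 5.18 CPM in the YapHMKO libraries, against 10.4 and 10.6 CPM in the YapWT libraries (log2 change -0.79 ± 0.43, adjusted p = 0.268). That in Zbtb20, a repressor of Afp, lay at chr16:43557177-43557848, and its RNA was lower with the label at -0.996 ± 0.30, adjusted p = 0.0229. The leading lost regions were in or near Sesn2, a stress-induced sestrin (chr4:132491739-132492240), Akr1c20, an aldo-keto reductase (chr13:4514735-4515172), and Mad1l1, a spindle checkpoint gene (chr5:140113334-140113764). The RNA changes were 0.94 ± 0.62 for Sesn2, not called, -1.61 ± 0.46 for Akr1c20 and -1.02 ± 0.30 for Mad1l1. The calls of Zbtb20, Akr1c20 and Mad1l1 were each lost without the cells with other-type markers, without the TMM factor and when any 1 of at least 3 of the 4 RNA libraries was left out, and that of Zbtb20 also after thinning and without the cells with both Xist and Y-linked reads. The exceptions were Zbtb20 without YapHMKO replicate 1 and Akr1c20 without YapWT replicate 2.

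RNA calls stood near all 3 classes of region. Of 1277 tested genes within 10 kb of a gained region, 7.52% were higher and 7.44% lower. Of 1450 near a lost region, 6.76% were higher and 12.48% lower. Of 11319 near a region held by all 6, 8.99% were higher and 10.6% lower. At start sites, 117 were held by a gained region and 38 by a lost one. Of 86 tested genes with a gained start, 3 (3.49%; Ccser2, Obsl1 and Sox11) were higher and 0 lower, beside 6.68% and 7.71% of all genes. Of 34 tested genes with a lost start, 0 were higher and 8 (23.5%) lower (Slc37a4, Apoa2, Nr1i3, Pfkfb1, Haao, Akr1d1, Sema4g and Mpp6). These names were taken after their values were seen.

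The promoters of 5 genes are given from RefSeq (GRCm38.p6), from 250 bases before to 50 after a start, 5′ to 3′ on the gene's strand. Yap1 is shown because the label rests on it, Ankrd1 and Sox11 for the gained and Slc37a4 and Nr1i3 for the lost region at their start. Capitals mark matches to GGAATG, the core of the TEAD motif; CAAAGTCCA (HNF4A) and TGTTTAC (FOXA) were searched too, all on both strands, and do not overlap one another by letters.
Yap1, chr9:8004547-8004846, minus strand: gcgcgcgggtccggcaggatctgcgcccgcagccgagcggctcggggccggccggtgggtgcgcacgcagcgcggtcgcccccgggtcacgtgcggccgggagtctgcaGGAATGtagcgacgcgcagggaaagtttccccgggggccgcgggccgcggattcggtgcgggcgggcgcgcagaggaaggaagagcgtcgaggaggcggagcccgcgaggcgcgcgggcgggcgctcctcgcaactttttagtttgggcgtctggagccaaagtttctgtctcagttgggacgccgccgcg
Ankrd1, chr19:36119795-36120094, minus strand: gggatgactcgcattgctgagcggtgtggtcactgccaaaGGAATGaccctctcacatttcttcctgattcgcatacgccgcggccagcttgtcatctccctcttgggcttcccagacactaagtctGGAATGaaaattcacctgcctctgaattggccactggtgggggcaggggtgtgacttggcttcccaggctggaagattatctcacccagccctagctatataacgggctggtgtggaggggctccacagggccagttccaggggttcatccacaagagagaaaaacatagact
Sox11, chr12:27342669-27342968, minus strand: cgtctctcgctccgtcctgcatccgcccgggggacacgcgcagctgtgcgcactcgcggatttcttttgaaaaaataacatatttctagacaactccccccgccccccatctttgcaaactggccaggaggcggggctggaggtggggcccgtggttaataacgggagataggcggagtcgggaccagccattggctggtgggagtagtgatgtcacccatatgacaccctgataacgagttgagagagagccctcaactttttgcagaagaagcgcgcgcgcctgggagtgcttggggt
Slc37a4, chr9:44398104-44398403, plus strand: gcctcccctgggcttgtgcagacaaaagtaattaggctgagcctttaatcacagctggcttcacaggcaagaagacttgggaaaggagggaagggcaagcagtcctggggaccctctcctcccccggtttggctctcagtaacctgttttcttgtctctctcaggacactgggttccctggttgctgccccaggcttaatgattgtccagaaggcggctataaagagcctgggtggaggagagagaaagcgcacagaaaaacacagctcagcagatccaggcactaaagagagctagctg
Nr1i3, chr1:171213720-171214019, plus strand: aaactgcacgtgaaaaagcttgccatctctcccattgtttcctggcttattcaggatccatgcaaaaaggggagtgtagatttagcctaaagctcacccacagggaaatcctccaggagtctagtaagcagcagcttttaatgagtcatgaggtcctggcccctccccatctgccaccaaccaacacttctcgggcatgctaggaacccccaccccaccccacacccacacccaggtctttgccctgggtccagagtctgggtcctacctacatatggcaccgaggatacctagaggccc

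GGAATG was found once in the Yap1 promoter and at 2 places in that of Ankrd1, and none of the 3 motifs in the other 3 promoters. Of 32851 RefSeq promoters, 14.7% held GGAATG, 0.475% CAAAGTCCA and 3.65% TGTTTAC. A match is a description of the letters, not a site. Sox11, an early developmental transcription factor, had 52 and 5 reads in the YapHMKO libraries, against 0 and 1 in the YapWT libraries, a call lost without YapHMKO replicate 1, without either YapWT library, in the fit of the E17.5 Foxa3Cre libraries and after thinning. Nr1i3, the nuclear receptor CAR, had 4.91 and 6.73 CPM in the YapHMKO libraries, against 17.9 and 16.3 CPM in the YapWT libraries (log2 change -1.55 ± 0.46, adjusted p = 0.0198), a call lost without any 1 of the 4 libraries, without the cells with other-type markers, after thinning and without the TMM factor. The window of Slc37a4 is the one of its 3 listed starts that the lost region covers.

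**Figure D5:**
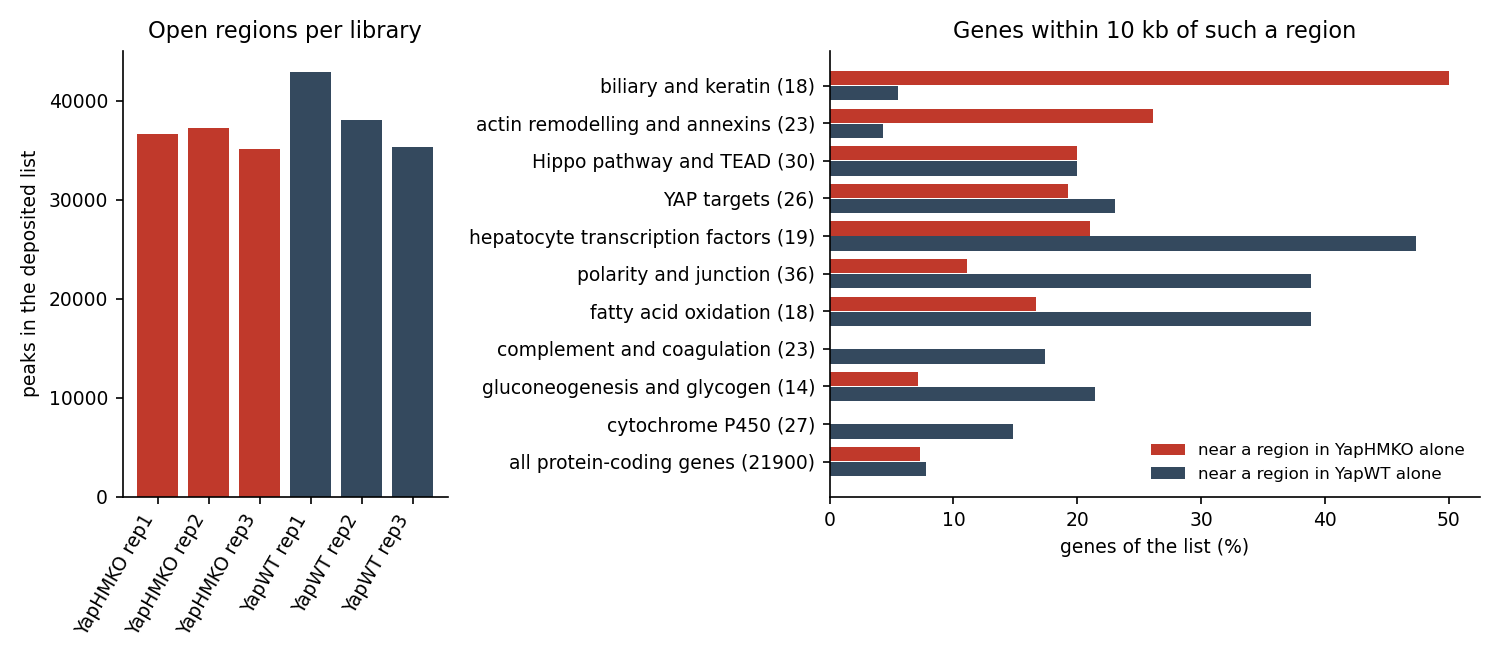
Left, peaks in each deposited list at E17.5; right, the percentage of each gene list (number of genes in brackets) within 10 kb of a region held by all 3 YapHMKO and no YapWT library (red) or the reverse (dark). Biliary and keratin genes stand at 50% and 5.56%, hepatocyte transcription factors at 21.1% and 47.4%, and all protein-coding genes at 7.30% and 7.79%.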

How the data were processed

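RNA was measured by Smart-seq3 in single cells and chromatin accessibility by ATAC-seq. The RNA values are whole-number read counts per gene and cell, deposited by the authors for 40824 genes, and per the submitters' processing notes FastQC 0.11.9, Trimmomatic 0.39, HISAT2 2.1.0 and GRCm38/mm10 were used. For ATAC-seq they name MACS 1.4.2, Bowtie2 2.2.5, Trimmomatic 0.38, HOMER and SAMtools 1.3.1, and the authors deposited peak lists with a score per peak, all at least 50. The labels' protocols describe cells dissociated with trypsin and sorted for EpCAM. How reads were counted and how peak calling was set is not given in the sources used here.

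Counts were summed over the cells of each library. Of 4264 cell columns, 1997 from 44 in vivo libraries of the Foxa3Cre and AlfpCre lines were used and 2267 were not. No cell was filtered or called as a doublet. edgeR 4.0.16 (R 4.3.3; filterByExpr by group, TMM, trended dispersion, robust quasi-likelihood fit) modelled 22 groups with 22 residual degrees of freedom, which share 1 estimate of spread. Genes were called at a Benjamini-Hochberg adjusted p below 0.05 over 18572 genes. On simulated counts for this comparison (17804 genes), 53% of 100 genes changed 2-fold and 95% of 100 changed 4-fold were called. The changed genes were drawn above a floor of mean CPM in YapWT, and counts varied by the trended dispersion alone. These shares therefore need not hold for genes of low level or of larger spread. Peaks were merged where they shared a base, and a gene was near a region within 10 kb of its span in RefSeq.

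Alternatives were DESeq2 1.42.0, other size factors, no filter, fewer libraries, each E17.5 replicate left out, a replicate block, thinning, and leaving out cells with reads for at least 50% of another type's markers. Those without cells holding both Xist and Y-linked reads, without the doubly labelled libraries and without the TMM factor were chosen after seeing the data.

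The genes and lists were chosen with earlier results of these data known. Named were Yap1, Wwtr1, Alb and Afp, the 10 largest rises and falls, up to 4 called members per list, Hippo, target and sex genes, and up to 4 regions per direction. Regions on chromosome 18 and the values of some genes that the rule names are not reported here. Intervals cover counting error only.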

Additional observations from a re-analysis of the deposited data

Results flagged for a closer look

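Each result in this section is a named gene for which the log2 change with the YapHMKO label at E17.5 differed from another change by the test of the difference itself (edgeR's quasi-likelihood test, adjusted p below 0.05 over 18572 genes, 2 libraries a group). Values are the E17.5 change minus the E15.5 change in the Yap line, so that negative ones mean a more negative change at E17.5. The TMM factors, genes per cell and share of cells with both Xist and Y-linked reads differed between the labels at E17.5, and their part was not tested. Xist and Y-linked reads also differed between the E15.5 and the E17.5 libraries of the Yap line, as given above. Single libraries were not searched as outliers in groups of 2 libraries.

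Yap1 itself differed by 5.69, its reads nearly vanishing with the label at E15.5 and not at E17.5. Among genes of secreted proteins and lipid carriage, the difference was -0.87 for Alb, -0.61 for Afp, -1.46 for Fgb, -0.83 for F2, -0.90 for Apoe, -3.70 for Fgl1 and -2.11 for Igfbp1. Among enzymes and transporters of metabolism it was -1.33 for Fah, -1.45 for Ass1, -1.69 for Arg1, -1.15 for Ugp2, -1.45 for Slc37a4, -1.06 for Acaa2, -1.32 for Ldha, -1.97 for Cyp8b1, -4.06 for Ces1c and -1.05 for Fdps. Akr1e1, at -4.42, was called in opposite directions on the 2 days. For the iron exporter and the ferritin heavy chain the values were -0.98 for Slc40a1 and -0.81 for Fth1. Regulators and adaptors with a negative difference had -0.99 for Cebpa, -2.08 for Nr1i3, -1.40 for Zfp36, -2.49 for Txnip, -3.85 for Efna1 and -3.49 for Lims2.

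Of 22 S phase genes the difference was called for 3, and of 22 G2 and M phase genes for 0. Among all tested genes the called share was 8.34%, so that the 0 is near that share. The median difference was 1.15 for S phase and 0.87 for G2 and M phase genes, against 0.05 for all genes. Those 3 and other called genes of the cell cycle had values of 5.09 for Clspn, 3.64 for Cdc6, 1.59 for Mcm4, 3.35 for Ccnd1 and 4.87 for Pcna-ps2. Fetal genes had 0.78 for Dlk1, 4.29 for Mdk, 3.31 for Foxa1, -0.72 for Igf2 and 0.74 for Igf2r. Hippo pathway genes had 1.58 for Wwc1, 2.26 for Frmd6 and 1.60 for Mob1a. Cytoskeletal and junction genes had 3.69 for Fscn1, 1.09 for Actb and 1.36 for Ctnnb1, and pericentral genes 2.63 for Rhbg and 1.27 for Gulo. Chaperones had 1.55 for Hsp90aa1 and 0.60 for Hspa8, the class I chain H2-K1 2.71 and the stellate marker Reln 1.4. Xist differed by 5.55. Most cells of the E15.5 Yap libraries held Xist without Y-linked reads, and 0 cells of the E17.5 Yap libraries did. Day and sex transcripts can thus not be told apart in this value. Snhg6 differed by 0.86 and Gm4735 by 5.45. Against the Pard3HMKO change at E17.5, the difference was -2.28 for Rps2, 1.45 for Snhg6, 2.66 for Gm4735, -2.54 for Gm6969 and -3.81 for Gm6472, the last 3 being pseudogenes.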

How the results depend on the processing

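Under the alternatives, 1166 of the gene and setting pairs for 86 named genes kept direction and side of the threshold, 97 lost a call, 18 gained one and 3 turned. The 3 were Igf2 (0.064), B2m (0.26) and Krt18 (0.083) without the TMM factor, and 44 genes kept their side throughout. Leaving out 1 library gave 697 to 807 genes higher and 844 to 1001 lower. Such fits assume that the lone library varies like the other groups. Without cells holding other-type markers 572 were higher and 495 lower, and without the TMM factor 4582 and 236. The difference from E15.5 was called for 876 to 1093 genes without 1 library, 908 in the 8 libraries alone, 280 without the other-type cells and 2879 without the TMM factor. That from Pard3HMKO was called for 145 genes with no filter, 28 with DESeq2, 14 in the E17.5 libraries, 8 in the 8 libraries alone, 9 after thinning and 2 without the cells with other-type markers. That from the doubly labelled line was called for 12 with no filter and 1 with DESeq2. Yap1 was called at 0.66 with no filter, 0.71 in the E17.5 libraries, 0.72 in the 4 libraries alone and 1.34 without the TMM factor. Its SE was 0.45 in the main fit, 0.15 in the E17.5 libraries and 0.16 in the 4 libraries alone. After thinning, 71.4% of cells of YapWT replicate 1 and 18.5% of cells of E15.5 YapHMKO replicate 2 held a Yap1 read. At a score of at least 100, 927 regions were gained, and without 1 ATAC library 2560 to 3555 were gained and 2796 to 3875 lost. With a replicate block 1232 genes were higher and 1403 lower, and Yap1 stood at 0.67. Same-numbered libraries did not deviate together (r = -0.0035, 2 pairs), so the numbers do not pair them. Leaving out fewer cells or libraries removes samples or reads; for the other settings the cause was not tested. The depth of 2 libraries of 30 and 33 cells limits genes of low level, and above 10 CPM too a single cell held over 50% of the reads of Serpina3k, Ifitm1 or Vpreb3 in a library.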

Other observations

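Some lists not described above held called genes at E17.5 as well. Among all tested genes, 6.68% were called higher and 7.71% lower with the TMM factor, and 24.7% and 1.27% without it. Of the iron and heme genes, 5 of 15 fell and 0 rose (median log2 change -0.70; 3 and 3, with a median of -0.03, without the TMM factor), and 2 fell without the cells with other-type markers. Slc40a1, the iron exporter ferroportin, had 60.1 and 57.6 CPM in the YapHMKO libraries, against 134 and 128 CPM in the YapWT libraries (log2 change -1.15 ± 0.16, adjusted p = 2.31e-06), a call lost without the cells with other-type markers. Fth1, the ferritin heavy chain, had 1541 and 1428 CPM in the YapHMKO libraries, against 2768 and 2723 CPM in the YapWT libraries (log2 change -0.89 ± 0.11, adjusted p = 9.81e-07), a call lost without the TMM factor. Both were lower in both YapHMKO libraries. Of the insulin-like growth factor and insulin genes, 7 of 18 fell and 1 rose (median log2 change -0.56; 2 and 3 without the TMM factor), and the median was 0.11 without the TMM factor. The 1 rise is near the share of all genes called higher. Of the 18 genes, 4 fell without YapHMKO replicate 2, 4 without YapWT replicate 2 and 2 without the cells with other-type markers. Igf2r, the receptor that clears IGF2, had 225 and 269 CPM in the YapHMKO libraries, against 123 and 129 CPM in the YapWT libraries (log2 change 0.97 ± 0.12, adjusted p = 5.33e-07), the opposite direction to Igf2 with the TMM factor.

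The immediate early list held falls and rises: 5 of 18 fell and 2 rose (median log2 change -0.38; 0 and 5, with a median of 0.30, without the TMM factor). The 2 rises are near the 6.68% of all tested genes called higher. Without YapHMKO replicate 2, 1 fell and 0 rose, without YapWT replicate 2, 2 fell and 0 rose, and without the cells with other-type markers 1 fell and 0 rose. Without YapHMKO replicate 1, 5 fell and 1 rose, and without YapWT replicate 1, 4 fell and 0 rose. Myc, a growth-promoting transcription factor, had 25.6 and 24.1 CPM in the YapHMKO libraries, against 55.7 and 64 CPM in the YapWT libraries (log2 change -1.27 ± 0.33, adjusted p = 0.00627), a call lost without YapHMKO replicate 2, YapWT replicate 2, the cells with other-type markers or the TMM factor. Zfp36, an RNA-decay factor of early responses, had 78 and 63.4 CPM in the YapHMKO libraries, against 137 and 146 CPM in the YapWT libraries (log2 change -1.003 ± 0.19, adjusted p = 0.000272), a call lost without the TMM factor. With the TMM factor cholesterol synthesis was split, since 6 of 20 rose and 4 fell (median log2 change 0.23; 13 and 0 without the TMM factor). Without any 1 of the 4 libraries, or without the cells with other-type markers, 3 rose, and 2 fell without YapHMKO replicate 2. Fdps, which makes farnesyl diphosphate, had 1039 and 968 CPM in the YapHMKO libraries, against 1843 and 1632 CPM in the YapWT libraries (log2 change -0.79 ± 0.14, adjusted p = 0.000121), a call lost without the TMM factor.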
